A study of Homo sapiens with 18 samples.

Results

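Granins are acidic proteins of dense-core vesicles, the granules from which neuroendocrine and endocrine cells release peptides on demand. They help to pack peptide cargo in the Golgi apparatus and are themselves cut by prohormone convertases into shorter active peptides. Stathmins bind free tubulin and favour the disassembly of microtubules, and phosphorylation weakens that binding. Melanocytes, the cells from which melanoma arises, come from the neural crest, an embryonic source that also gives peripheral neurons and adrenal chromaffin cells. The genes described here are the 6 granins and granin-like genes VGF, SCG2, SCG3, SCG5, CHGA and CHGB and the 4 stathmins STMN1, STMN2, STMN3 and STMN4, 10 of the 56629 gene symbols in the deposited tables. VGF and STMN3 were selected on their measured counts in 501mel, where both were higher in the ARID2 knockout (KO) lines than in the control lines. Their 501mel KO values are therefore given as a description with no test, and the other 8 genes joined as relatives by name and role.

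ARID2 encodes the DNA-binding subunit of PBAF, one type of SWI/SNF chromatin remodeller, and it was targeted by CRISPR in human metastatic melanoma lines grown in DMEM with serum. SKmel147 carries NRAS Q61R and 501mel carries BRAF V600E, per the labels. SKmel147 was sequenced as Par, with no construct, as NT, with Lenti-Cas9 and a PLKO guide vector, and as KO1.4, KO1.5 and KO3.20, KO lines made with the same kinds of construct as NT. 501mel was sequenced as Par, with no construct, as NTC, with Lenti-CRISPR V2, and as KO1.8 and KO5.2, KO lines made with that same vector. NT and NTC are called transduced controls, and "controls" means Par and the transduced control, averaged with equal weight. Each line gave 2 libraries of polyadenylated RNA, 10 for SKmel147 and 8 for 501mel. The labels leave unsaid whether a KO line is 1 clone or pooled cells, and whether its libraries are separate cultures. The p-values therefore reflect the spread between sequenced libraries only, which may be technical.

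Levels are CPM, counts relative to library size, scaled with TMM factors. Fold changes are log2 values from edgeR with their standard error (SE), and adjusted p-values are from edgeR's quasi-likelihood test with Benjamini-Hochberg adjustment over all genes tested. Genes with an adjusted p under 0.05 count as called. Libraries held 21266522 to 35670140 counts in SKmel147 and 16749707 to 20606855 in 501mel. In SKmel147, ARID2 RNA spanned 63.5 to 74.2 CPM in controls and 40.4 to 58.6 CPM in KO libraries. In 501mel it spanned 39.6 to 42.4 CPM in controls and 19.0 to 31.5 CPM in KO libraries. The groups did not overlap in either cell line, and ARID2 fell by 0.43 ± 0.08 (adjusted p = 0.0039) and fell by 0.73 ± 0.05 (adjusted p = 3.75e-08) on the log2 scale in the edgeR fits. By SKmel147 line, ARID2 was at -0.25 ± 0.11 in KO1.4 (adjusted p = 0.228, not called), -0.41 ± 0.11 in KO1.5 (adjusted p = 0.0384) and -0.64 ± 0.11 in KO3.20 (adjusted p = 0.00375). Genes of the melanocyte lineage were at a summed level of 7300 to 10100 CPM over 11 markers in 501mel and of 179 to 284 CPM in SKmel147. In SKmel147, 8 of these 11 markers were under 1 CPM in the KO libraries and 6 in the controls, and SOX10, the neural crest factor, stood at 148 to 254 CPM. The summed level of 10 neuroendocrine markers was 105 to 169 CPM in the SKmel147 controls, 106 to 161 CPM with KO, 115 to 134 CPM in the 501mel controls and 71.0 to 159 CPM with KO. Most of it was the adhesion gene NCAM1, at 104 to 168 CPM in SKmel147 and 22.4 to 133 CPM in 501mel, and the vesicle gene SYP, at 20.7 to 51.1 CPM in 501mel. In each group 4 of the 10 were at 0, and GRP and CALCA had no count in any library of either cell line. The part of these markers in the results below was not tested.

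The promoter sequences of the granins are shown first, as VGF and CHGA share a regulatory element by sequence. The RNA levels of VGF and CHGA were far apart in 501mel, and the part of the element was not tested. In SKmel147 both were close to undetected. The RefSeq table for GRCh38.p14 held windows of 250 bases before to 50 bases after the start for 6 of the 10 genes (VGF, SCG3, SCG5, CHGA, STMN1 and STMN3). The bases before the start are printed 5′ to 3′ in the direction of the gene. VGF lies on chromosome 7 (chr7:101165570-101165819, minus strand), CHGA on chromosome 14 (chr14:92922900-92923149, plus strand) and STMN3 on chromosome 20 (chr20:63652767-63653016, minus strand). Capitals mark matches to the motifs given below.
VGF: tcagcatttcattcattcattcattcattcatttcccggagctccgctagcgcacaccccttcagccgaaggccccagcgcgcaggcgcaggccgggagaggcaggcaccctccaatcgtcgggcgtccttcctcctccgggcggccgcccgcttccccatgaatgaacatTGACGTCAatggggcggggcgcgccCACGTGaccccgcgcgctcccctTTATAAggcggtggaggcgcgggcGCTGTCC
CHGA: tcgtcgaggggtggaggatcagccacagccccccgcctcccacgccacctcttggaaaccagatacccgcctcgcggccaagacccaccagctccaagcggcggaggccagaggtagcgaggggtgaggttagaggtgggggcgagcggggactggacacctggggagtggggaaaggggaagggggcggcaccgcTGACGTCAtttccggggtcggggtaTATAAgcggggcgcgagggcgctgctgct
STMN3: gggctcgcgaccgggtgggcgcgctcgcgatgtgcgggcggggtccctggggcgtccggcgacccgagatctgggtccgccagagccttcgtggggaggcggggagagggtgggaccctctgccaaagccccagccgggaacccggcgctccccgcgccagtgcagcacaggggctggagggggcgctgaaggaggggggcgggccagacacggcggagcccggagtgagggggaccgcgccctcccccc
SCG3: TTCAGCACCcacagggcGGACAGC

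A set of 8 short motifs were searched on both strands of the whole window. They were the cAMP response element TGACGTCA, bound by CREB proteins, the AP-1 site TGANTCA, the E-box CACGTG, the M-box core CATGTG, the TEAD site GGAATG, the TATA box TATAA, and the left and right motifs, TTCAGCACC and GGACAGC, of RE1, the element bound by the neuronal repressor REST. None of these motifs contains another, and the TATA box of VGF matched on both strands. The cAMP response element was found in the windows of VGF and CHGA, starting 79 and 54 bases before the start, and in 1.85% of all 35116 windows. A TATA box was found in both as well, starting 30 and 29 bases before the start, and in 20.4% of all windows. VGF also held the E-box, found in 7.26% of windows, and the right RE1 motif on the opposite strand, found in 6.03%. SCG3 held both RE1 motifs on its own strand with 8 bases between them, beginning 9 bases into the transcript (chr15:51681511-51681534, plus strand), which is the SCG3 line above. The left RE1 motif stood in 0.376% of all windows. SCG3 also held the TEAD site, found in 14.0% of windows. STMN1, with 3 windows, held 2 E-boxes in one window and an M-box core (11.1% of windows) in another. The AP-1 site (7.71% of windows) was found in none of the members' windows, and no searched motif was found in those of STMN3 and SCG5. A match says only that these letters are there.

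VGF, a nerve-growth-factor-inducible precursor of several secreted peptides, was abundant in 501mel and nearly silent in SKmel147. In 501mel its level was 39.8 and 41.8 CPM in Par, 90.7 and 91.1 CPM in NTC, 366 and 378 CPM in KO1.8, and 260 and 244 CPM in KO5.2. Every KO library lay above every control library, and the lowest KO library stood well clear of NTC. The mean over lines was 65.8 ± 35.4 CPM (SD, n = 2 lines) in the controls and 312 ± 84.7 CPM (SD, n = 2 lines) in the KO lines. The edgeR estimate of the log2 fold change was 2.33 ± 0.04 (SE), with 2.60 in KO1.8 and 2.06 in KO5.2. The control lines also differed from each other: VGF was higher in NTC than in Par by 1.15 ± 0.06 (adjusted p = 2.47e-08, edgeR). The KO estimate was accordingly 1.75 against NTC alone and 2.91 against Par alone. Between the KO lines, VGF was lower in KO5.2, at -0.54 ± 0.05 for KO5.2 minus KO1.8 (adjusted p = 2.28e-06, edgeR). In bulk RNA, a larger share of expressing cells and more RNA per cell cannot be told apart.

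In SKmel147, VGF gave 0 to 12 counts per library and did not pass the filter on low counts. Par had 1 and 5 counts, NT had 0 and 2, KO1.4 had 12 and 9, KO1.5 had 11 and 7, and KO3.20 had 6 and 6. On the CPM scale Par replicate 2, at 0.219 CPM, stood above both KO3.20 libraries, at 0.186 and 0.205 CPM, so the groups overlapped. Summed over libraries, 8 counts in the controls stood against 51 in the KO lines, a ratio of CPM sums of 4.28 with a 95% interval of 2.02 to 10.5 that covers counting error only. Without the filter the edgeR estimate was 2.14 ± 0.64 (adjusted p = 0.0108). By line it was 2.69 in KO1.4 (adjusted p = 0.00861), 2.16 in KO1.5 (adjusted p = 0.0609) and 1.55 in KO3.20 (adjusted p = 0.344). Taking lines rather than libraries as replicates gave 2.09 (adjusted p = 0.258). VGF failed the filter without KO1.4 replicate 1, its library with most counts. With any other single library left out it passed through its KO libraries, so those fits are not used as tests of it.

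SCG2, secretogranin II and the precursor of secretoneurin, was the granin that rose in SKmel147. It was at 9.84 and 11.0 CPM in Par, 10.2 and 10.9 CPM in NT, 35.3 and 38.8 CPM in KO1.4, 20.2 and 15.8 CPM in KO1.5, and 117 and 112 CPM in KO3.20. The 4 control libraries lay close together, every KO library lay above them, and the KO lines were well separated from each other. SCG2 rose by 2.01 ± 0.10 in the KO lines (adjusted p = 1.65e-07, edgeR). It was called in each line, at 1.82 ± 0.12 in KO1.4 (adjusted p = 4.09e-06), 0.78 ± 0.12 in KO1.5 (adjusted p = 0.00175) and 3.45 ± 0.11 in KO3.20 (adjusted p = 1.96e-08). NT and Par did not differ detectably, at 0.02 ± 0.14 (adjusted p = 0.946). The difference among the KO lines was itself called in the joint edgeR F test (adjusted p = 1.89e-06). Taking lines rather than libraries as replicates gave 2.45 (adjusted p = 0.246), and a voom fit that treats line as a random effect gave 2.03 (adjusted p = 0.0838).

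Of the 4 members tested in SKmel147 (SCG2, SCG5, STMN1 and STMN3), SCG2 alone was called in KO against controls, where 17.7% of all 18361 genes tested were called, 8.07% of all as higher and 9.6% as lower. It was also the 1 of 4 called with 1 sign in every KO line, a pattern met by 3.39% of all genes. Among the single lines, 2 of 4 were called in KO1.4 (8.77% of all genes), 3 of 4 in KO1.5 (11.2%) and 1 of 4 in KO3.20 (12.6%). Between NT and Par, edgeR called 0 of 4 (9.27% of all genes). None of the 4 had an unadjusted p under 0.05 there, and DESeq2 called 0 too. The difference among the KO lines was called for 2 of 4, SCG2 and STMN3 (5.46% of all genes).

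In 501mel, SCG2 was scarce and differed between the KO lines. It was at 0.398 and 0.344 CPM in Par, 0.173 and 0.530 CPM in NTC, 3.58 and 2.43 CPM in KO1.8, and 0.152 and 0.341 CPM in KO5.2. Both KO1.8 libraries lay above every other library, and KO5.2 overlapped the controls. The gene passed the low-count filter only through KO1.8, so a difference in that line was built into its being tested. KO1.8 was higher than the controls by 3.0 ± 0.33 (adjusted p = 6.38e-06, edgeR), and KO5.2 was at -0.55 ± 0.58 (adjusted p = 0.45). The direct difference, KO5.2 minus KO1.8, was -3.54 ± 0.43 (adjusted p = 1.69e-05).

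SCG3, which binds chromogranin A and carries it to the granule membrane, was likewise high in KO1.8 alone in 501mel. It was at 0.342 and 0.172 CPM in Par, 0.403 and 0.337 CPM in NTC, 1.46 and 1.67 CPM in KO1.8, and 0.404 and 0.293 CPM in KO5.2. Only the KO1.8 libraries stood apart from the rest, and SCG3 too passed the filter through that line alone. KO1.8 was higher than the controls by 2.32 ± 0.32 (adjusted p = 5.43e-05, edgeR) and KO5.2 was at 0.18 ± 0.46 (adjusted p = 0.768). KO5.2 minus KO1.8 was -2.13 ± 0.38 (adjusted p = 0.000385). In SKmel147 SCG3 gave 0 to 2 counts per library and none in 6 of 10 libraries. SCG3 overlaps the antisense gene AC020892.1, and with the strand setting of the counting not given, their reads cannot be told apart.

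SCG5, also called 7B2, is the chaperone of the prohormone convertase PCSK2. Its level in SKmel147 was 2.27 to 2.60 CPM in the control libraries, 2.44 to 2.70 CPM in KO1.4, 3.25 and 3.30 CPM in KO1.5, and 1.86 and 1.84 CPM in KO3.20. KO1.5 lay above and KO3.20 below all controls, and neither line passed the test, at 0.39 ± 0.18 (adjusted p = 0.202) and -0.43 ± 0.19 (adjusted p = 0.186). In 501mel SCG5 was at 0.569 to 1.25 CPM in the controls and at 0.505 to 0.620 CPM with KO, and these ranges overlapped. The edgeR estimate was -0.48 ± 0.30 (adjusted p = 0.197). SCG5 overlaps the antisense gene AC123768.1.

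The chromogranins, the classic markers of neuroendocrine granules, were close to undetected. CHGA gave 0 to 5 counts per library in SKmel147 and 0 to 2 in 501mel. Its promoter holds the same cAMP response element as that of VGF, and the part of this element was not tested. CHGB gave 1 to 6 counts per library in SKmel147. In 501mel CHGB had 8 and 3 counts in KO1.8, 1 count in NTC replicate 2 and none in the other libraries. The ratio of CPM sums of KO1.8 to the controls was 19.6, with a 95% counting interval of 2.85 to 845. Without the low-count filter CHGB was called in KO1.8 (adjusted p = 0.0132, edgeR) and in the direct comparison of the KO lines (adjusted p = 0.0263). VGF, SCG2, SCG3 and CHGB were all higher in KO1.8 than in KO5.2, while SCG5 differed by -0.09 ± 0.44 (adjusted p = 0.893, edgeR). For SCG2 and SCG3 this was built in by the filter, and CHGB rests on 11 counts in KO1.8. Of all genes, 41.3% were called between these lines, so no pattern of the granins is read from it.

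**Figure D1:**
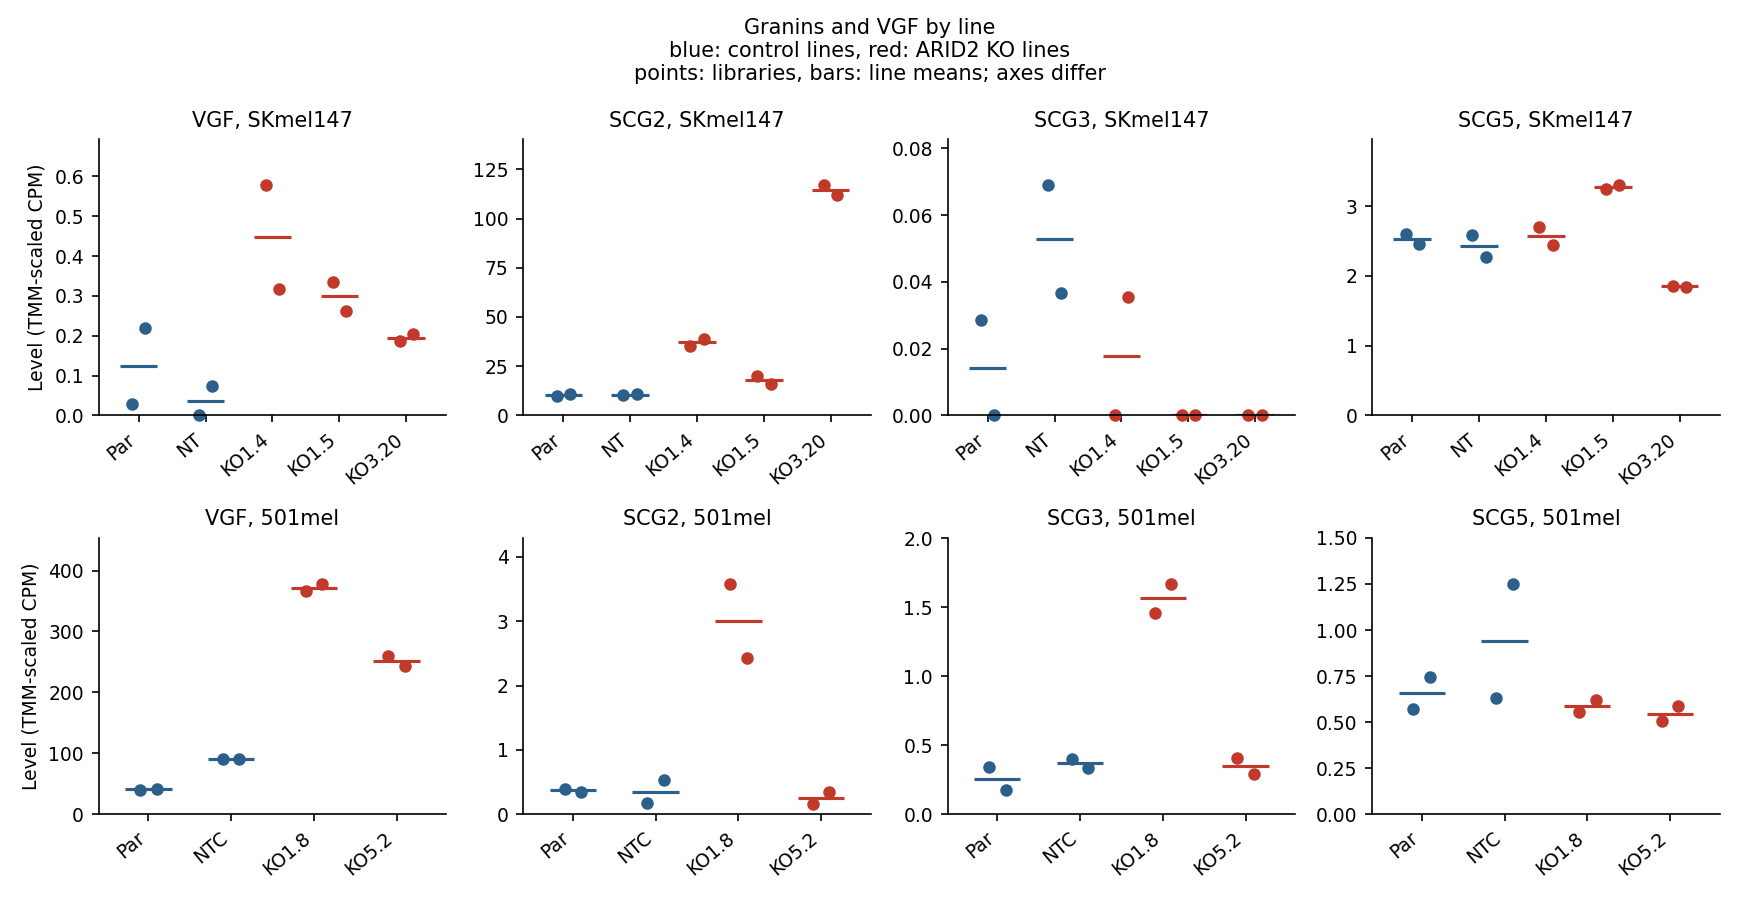
Levels in TMM-scaled CPM of VGF, SCG2, SCG3 and SCG5 (columns) in SKmel147 (top) and 501mel (bottom), with 1 point per library, a bar at each line's mean and a separate axis in each panel. VGF in 501mel lies at 244 CPM or more in all KO libraries and at 91.1 CPM or less in the controls. SCG2 in SKmel147 reaches 117 CPM in KO3.20, and in 501mel SCG2 and SCG3 are high in KO1.8 alone.

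STMN3, also called SCLIP, is a membrane-anchored stathmin best known from neurons. In 501mel it was at 6.32 and 6.43 CPM in Par, 2.47 and 2.84 CPM in NTC, 18.5 and 18.2 CPM in KO1.8, and 27.4 and 27.8 CPM in KO5.2. Every KO library lay above every control library, and KO5.2 lay above KO1.8, the reverse of the order seen for VGF. The mean over lines was 4.51 ± 2.63 CPM (SD, n = 2 lines) in the controls and 23.0 ± 6.56 CPM (SD, n = 2 lines) in the KO lines. The edgeR estimate was 2.45 ± 0.08 (SE), with 2.14 in KO1.8 and 2.75 in KO5.2. Here the transduced control lay below Par, with NTC minus Par at -1.26 ± 0.15 (adjusted p = 4.33e-05, edgeR), opposite to VGF. The KO estimate was 3.08 against NTC alone and 1.82 against Par alone. KO5.2 was higher than KO1.8 by 0.61 ± 0.08 (adjusted p = 4.11e-05).

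In SKmel147 STMN3 was low, and the KO lines went in opposite directions. It was at 0.429 and 0.919 CPM in Par, 0.345 and 0.403 CPM in NT, 2.75 and 2.02 CPM in KO1.4, 0.0607 and 0.150 CPM in KO1.5, and 0.217 and 0.239 CPM in KO3.20. KO1.4 lay above all controls, and KO1.5 and KO3.20 lay below them. STMN3 rose in KO1.4 by 2.25 ± 0.36 (adjusted p = 0.00249, edgeR) and in KO1.5 it fell by 2.24 ± 0.57 (adjusted p = 0.0276). KO3.20 was at -1.10 ± 0.48 (adjusted p = 0.168). Over the 3 lines the estimate was -0.37 ± 0.35 (adjusted p = 0.521), and the difference among the lines was called (adjusted p = 0.000611, F test). The KO1.5 value rests on 2 and 4 counts. Its call was lost against NT alone (-1.85, adjusted p = 0.115), without the KO1.4 libraries in the fit (adjusted p = 0.0518), and without Par replicate 2 (0.0519), NT replicate 2 (0.0562), KO1.5 replicate 1 (0.275) or KO1.5 replicate 2 (0.0673). The KO1.4 call was lost without its replicate 1 (2.01, adjusted p = 0.0628).

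STMN1, also called oncoprotein 18, is the cytosolic stathmin of dividing cells and was the most abundant stathmin per length in both cell lines. Per kilobase of exon its control level was 44.8 CPM in SKmel147 and 52.6 CPM in 501mel, against 0.173 and 1.49 CPM per kilobase for STMN3. In 501mel STMN1 was at 327 and 363 CPM in Par, 310 and 318 CPM in NTC, 341 and 372 CPM in KO1.8, and 435 and 466 CPM in KO5.2. KO5.2 lay above all other libraries, and KO1.8 overlapped Par. STMN1 rose by 0.29 ± 0.04 in the KO lines together (adjusted p = 7.02e-05, edgeR) and by 0.46 ± 0.05 in KO5.2 (adjusted p = 3.68e-06). KO1.8 was at 0.11 ± 0.05 (adjusted p = 0.122), and KO5.2 exceeded KO1.8 by 0.36 ± 0.06 (adjusted p = 0.000306). Without KO5.2 the rise was not called (0.11, adjusted p = 0.15). The KO1.8 value was called against NTC alone (0.18, adjusted p = 0.0317), without Par replicate 2 (0.15, adjusted p = 0.0215), with the GC and length correction (0.12, adjusted p = 0.0447) and with the replicate block (0.11, adjusted p = 0.0282).

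In SKmel147 STMN1 was at 256 and 271 CPM in Par, 315 and 281 CPM in NT, 239 and 274 CPM in KO1.4, 216 and 216 CPM in KO1.5, and 257 and 264 CPM in KO3.20. KO1.5 lay below every other library, and the other KO lines overlapped the controls. In KO1.5 STMN1 fell by 0.38 ± 0.09 (adjusted p = 0.0206, edgeR), and over the KO lines it was at -0.21 ± 0.07 (adjusted p = 0.0523). The KO1.5 call was lost against Par alone (-0.30, adjusted p = 0.0836) and without either of its libraries (adjusted p = 0.159 and 0.129), and the fall over the KO lines was called without NT replicate 2 (-0.25, adjusted p = 0.0431), against NT alone (-0.30, adjusted p = 0.0419) and with the GC and length correction (-0.23, adjusted p = 0.0244). STMN1P2, a copy in the tables, and pseudogenes on the opposite strand could share reads with STMN1. STMN2, the neuronal stathmin SCG10, gave 0 to 3 counts per library in SKmel147 and 0 to 1 in 501mel. STMN4 gave 0 to 2 counts in SKmel147 and 0 counts in all 8 libraries of 501mel, which allows up to 0.02 CPM by counting error.

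**Figure D2:**
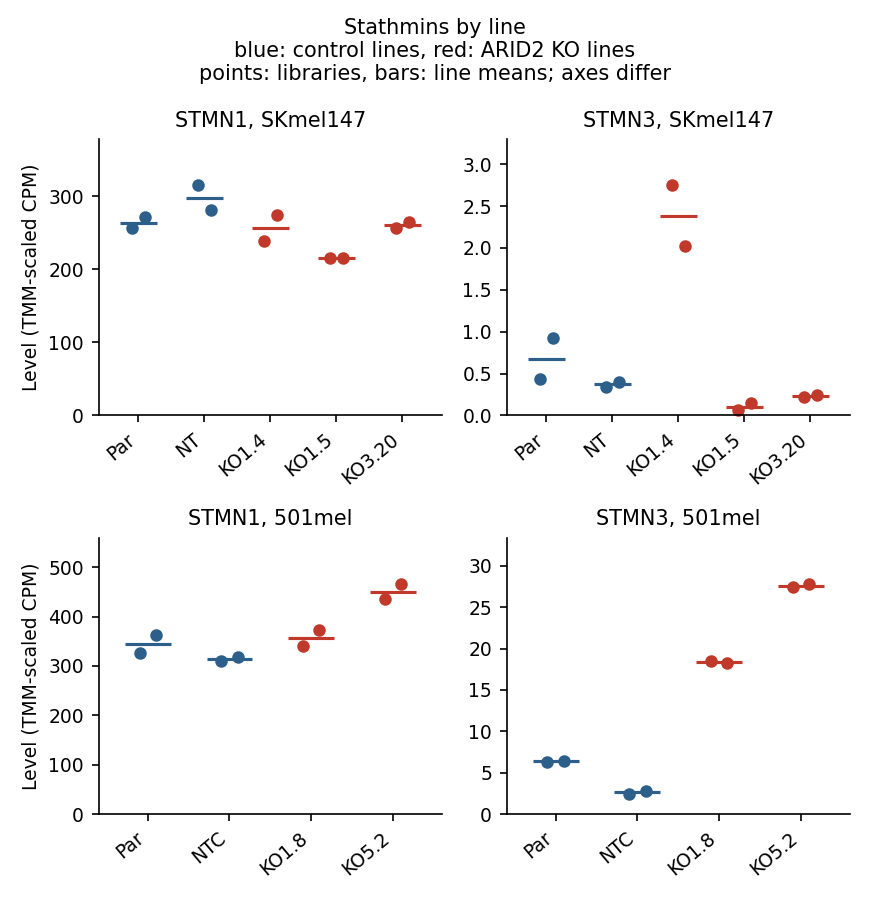
Levels in TMM-scaled CPM of STMN1 and STMN3 (columns) in SKmel147 (top) and 501mel (bottom), with 1 point per library, a bar at each line's mean and a separate axis from 0 in each panel. STMN3 in 501mel lies at 18.2 CPM or more in the KO libraries and at 6.43 CPM or less in the controls, and in SKmel147 it is high in KO1.4 alone. STMN1 spans 216 to 466 CPM over both cell lines.

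Of the 6 members tested in 501mel, 4 were tested in KO against controls apart from VGF and STMN3, and 3 of these (SCG2, SCG3 and STMN1) were called, all as higher. The estimates were 1.22 ± 0.43 (adjusted p = 0.0269) for SCG2 and 1.25 ± 0.34 (adjusted p = 0.00713) for SCG3. In this comparison 51.3% of all 16230 genes tested were called, 24.8% of all as higher and 26.5% as lower. As SCG2 and SCG3 entered the test through KO1.8 alone, the count of 3 adds nothing beyond the values of the single lines. In KO1.8, 2 of the 4 were called, SCG2 and SCG3 (40.2% of all genes), and in KO5.2 1 of the 4, STMN1 (53.5%). Passing the filter through KO1.8 built those KO1.8 differences in, so nothing is read from that count. In the main analysis edgeR called none of the 4 in both KO lines (24.0% of all genes), and STMN1 was called in both under the settings given above for KO1.8. None had an unadjusted p under 0.05 in both lines in the main analysis, and DESeq2 also gave 0. The KO-line difference, KO5.2 against KO1.8, was called for 5 of 6 members, all but SCG5, at a background of 41.3%. For SCG2 and SCG3 this difference too was built into their being tested, and nothing is read from the count. NTC against Par was called for 2 of 6, VGF and STMN3, at a background of 15.7%. The SCG2 call in KO against controls was lost against either control alone and without Par replicate 2, NTC replicate 1, KO1.8 replicate 1 or KO5.2 replicate 2 (adjusted p = 0.0533 to 0.279). The SCG3 call was lost against NTC alone, without KO5.2 replicate 1 and in DESeq2's Wald test (adjusted p = 0.0507, 0.0573 and 0.0517). Taking lines as replicates, or as a random effect in voom, called 0 of the 4. The shares of all genes called in those settings are not given here, so nothing is read from that 0.

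**Figure D3:**
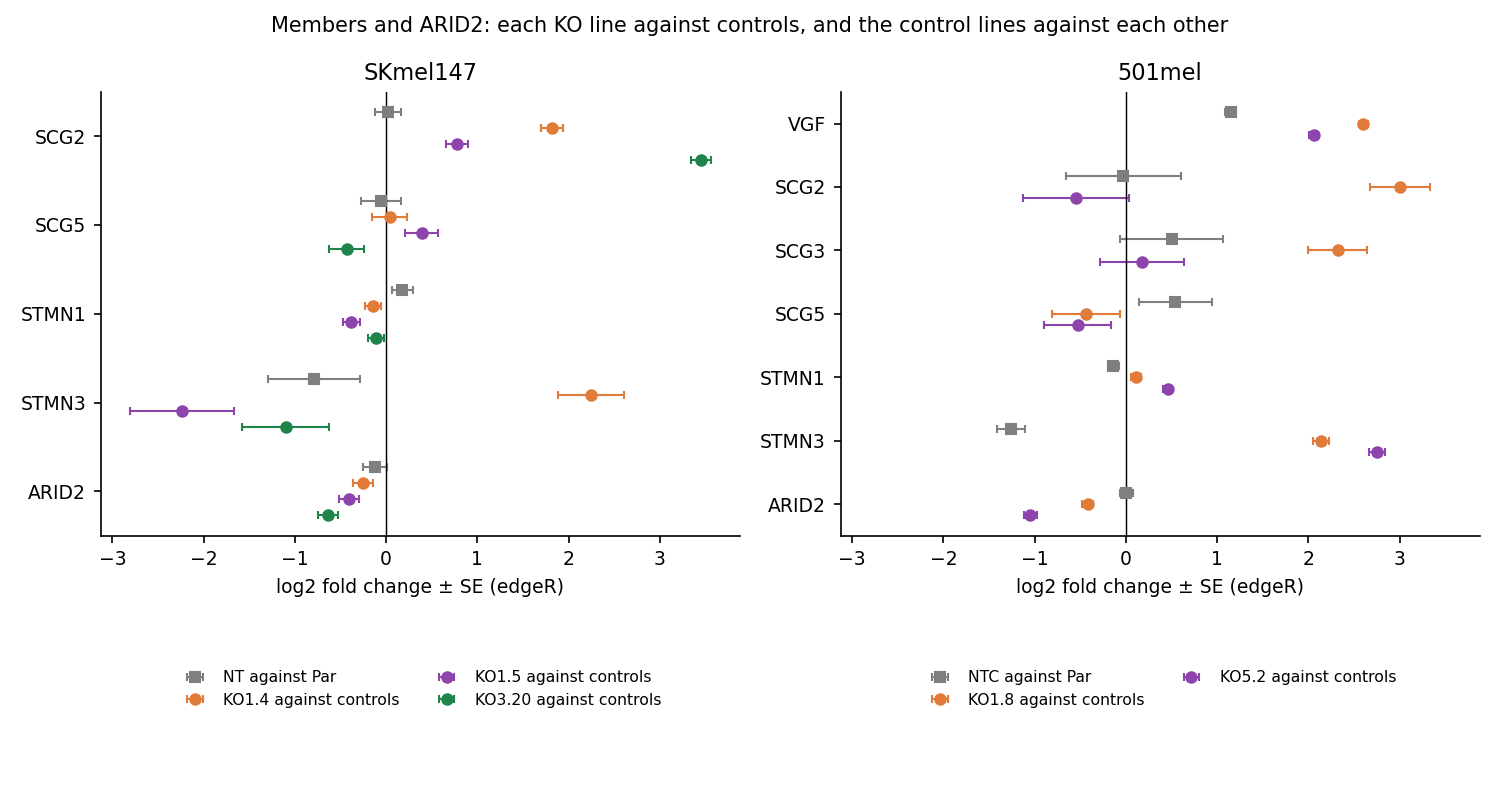
Log2 fold changes with SE from edgeR for each KO line against the mean of the controls (circles) and for the transduced control against Par (grey squares), for the members tested and ARID2, in SKmel147 (left) and 501mel (right). SCG2 in SKmel147 lies between 0.78 and 3.45 in the KO lines with the control difference at 0.02. In 501mel the control difference of VGF, 1.15, and of STMN3, -1.26, point in opposite directions.

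The control lines of the cell lines were compared in a joint fit of all 18 libraries. All 6 members tested were called, at a background of 80.7% of 19518 genes. VGF passed the filter of this fit through 501mel, and SCG3 through KO1.8 alone. A higher level in 501mel was thus built into their being tested, and their p-values here are not read. VGF was higher in 501mel by 9.83 ± 0.20 (adjusted p = 3.94e-17), SCG3 by 3.11 ± 0.61 (adjusted p = 0.000227), STMN3 by 3.07 ± 0.20 (adjusted p = 2.54e-10) and STMN1 by 0.23 ± 0.06 (adjusted p = 0.00307). The STMN1 call was lost against the transduced controls alone (0.08, adjusted p = 0.446), with lines as replicates (0.26, adjusted p = 0.156) and in voom (0.23, adjusted p = 0.0975). SCG2 and SCG5 were lower in 501mel, with a log2 difference of -4.81 ± 0.21 (adjusted p = 8.54e-13) and -1.64 ± 0.20 (adjusted p = 1.09e-06). Each cell line thus had a different leading granin: per kilobase of exon, VGF stood at 24.3 CPM in the 501mel controls and SCG2 at 3.85 CPM in the SKmel147 controls. SCG2 in SKmel147, and VGF in 501mel, the latter selected for it, were the granins whose KO libraries all lay above all control libraries. How many of all genes were separated in this way was not counted, so it is not read as a trait of these genes. Whether KO effects differed by cell line was tested as an interaction for the 4 members other than VGF and STMN3. It was called for STMN1, at 0.49 ± 0.09 (adjusted p = 0.000595), where 21.3% of all genes were called. For SCG2 it was -0.80 ± 0.40 (adjusted p = 0.177), for SCG3 3.30 ± 1.16 (adjusted p = 0.0558) and for SCG5 -0.49 ± 0.30 (adjusted p = 0.286). In this joint fit SCG3 passed the filter through KO1.8 alone, so a 501mel KO difference was built into its interaction. Its SKmel147 counts were 4 in the controls and 1 in the KO lines, and nothing is read from its interaction. For SCG2 the interaction depends on which 501mel line is kept: without KO5.2 it was 0.99 (adjusted p = 0.0494), and without KO1.8 it was -2.58 (adjusted p = 0.00114).

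Genes that process prohormones and granins were tested in KO against controls beside the members, 10 of 18 listed in SKmel147 and 12 of 18 in 501mel. In 501mel 7 of 12 rose and 3 fell, where 24.8% of all genes were called as higher and 26.5% as lower, with a median of 0.26 against -0.01 over all genes. These shares are the background for each list in 501mel, and 8.07% higher and 9.6% lower for each in SKmel147. The endopeptidase gene ECE1 rose by 0.66 ± 0.04 (adjusted p = 2.05e-08), the convertase gene FURIN by 0.59 ± 0.04 (adjusted p = 4.74e-08), and QPCT, which forms the pyroglutamate end of peptides, by 0.56 ± 0.04 (adjusted p = 7.57e-08). In 501mel PAM, the enzyme of peptide amidation, fell by 0.45 ± 0.05 (adjusted p = 2.11e-06). PCSK1N, the granin-like inhibitor of PCSK1, is named after its value was seen: it rose by 1.48 (adjusted p = 8.26e-06) in 501mel. In SKmel147 1 of 10 rose and 1 fell, close to the background, with a median of -0.01: PAM rose by 0.39 ± 0.06 (adjusted p = 0.00173) and the convertase gene PCSK5 fell by 1.13 ± 0.13 (adjusted p = 0.000167).

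Genes of dense-core vesicle transport and release were called in both directions in both cell lines. In SKmel147, 7 of 24 tested rose (8.07% of all genes) and 5 fell (9.6%), with a median of 0.16. SNAP25, a membrane-fusion SNARE, rose by 1.45 ± 0.18 (adjusted p = 0.000237) and SYTL2, a RAB27 effector, by 0.60 ± 0.08 (adjusted p = 0.000343). The calcium sensor gene SYT1 and the vesicle-priming gene CADPS both fell by 0.79 (adjusted p = 0.000282 and 0.0013), and NT minus Par was -0.99 and -1.36 for them. In 501mel, 9 of 22 tested rose (24.8% of all genes) and 3 fell (26.5%), with a median of 0.16. The 12 called of 22 lie near the 51.3% of all genes. RAB3C rose by 0.85 ± 0.07 (adjusted p = 3.73e-07), SYTL2 by 0.50 ± 0.04 (adjusted p = 3.9e-07), RAB27A by 0.46 ± 0.04 (adjusted p = 3.83e-07) and CADPS by 1.88 ± 0.19 (adjusted p = 1.92e-06). The 3 that fell were RIMS2 (-1.85 ± 0.457, adjusted p = 0.00364), VPS13A (-0.494 ± 0.0604, adjusted p = 9.72e-06) and UNC13B (-0.262 ± 0.0615, adjusted p = 0.00249). Named after its value was seen, SNAP25 also rose in 501mel, by 4.73 ± 0.649 (adjusted p = 4.04e-05). With no 501mel library over 0.763 CPM, SNAP25 may have passed the low-count filter through its KO libraries. CADPS was at 1.06 CPM in the 501mel controls and 3.99 CPM in the KO lines. Its NTC minus Par was -1.42 there, and its KO1.8 and KO5.2 values were 1.11 and 2.65. The summed level of 10 neuron markers, which include SNAP25 and SYT1, was 45.0 to 86.3 CPM in the SKmel147 controls and 33.7 to 45.7 CPM with KO. In 501mel it was 0.241 to 5.05 CPM in the controls and 0.731 to 17.4 CPM with KO. There NEFL alone spanned 0.0963 to 16.6 CPM, and SNAP25 was at 0.763 CPM or less. In SKmel147 the sum was mostly SYT1 (17.3 to 51.3 CPM) and NEFL (6.64 to 27.5 CPM), with GAP43 at 2.9 to 7.71 CPM and SNAP25 at 1.14 to 4.84 CPM. Of the 10 markers, 3 were at 0 in all SKmel147 controls and 2 in all KO libraries, and in 501mel 6 and 5. INA, a neuronal filament gene, had no count in any library of either cell line. The part of these markers in the results was not tested.

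Few neuropeptide genes were expressed. Of 27 listed, 5 were tested in SKmel147, where 0 rose and 1 fell with a median of -0.08, and 6 in 501mel, where 4 rose and 1 fell with a median of 0.30 (all genes: 8.07% higher and 9.6% lower in SKmel147, 24.8% and 26.5% in 501mel). The SKmel147 fall was CALCB, a calcitonin-gene-related peptide, from 0.914 to 0.0919 CPM (adjusted p = 0.0059, edgeR). The control lines differed for CALCB as well, with NT minus Par at 2.29 on the log2 scale. CALCB passed the low-count filter through control libraries alone, so a fall was built into its being tested. In 501mel UCN2, a urocortin, rose by 0.70 ± 0.07 (adjusted p = 1.81e-06), ADM, adrenomedullin, by 0.36 ± 0.09 (adjusted p = 0.00258) and NPPC, C-type natriuretic peptide, by 1.39 ± 0.35 (adjusted p = 0.00391). NPPC was at 0.273 CPM in the 501mel controls and 0.725 CPM with KO. It may thus have passed the low-count filter through its KO libraries, which would build in a rise. NMB, neuromedin B, fell from 1.51 to 0.219 CPM (adjusted p = 1.87e-06), and like CALCB it passed the filter through control libraries alone. The UCN2 rise was 0.10 in KO1.8 and 1.30 in KO5.2.

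REST represses many granin and neuronal genes through the cofactors RCOR1, KDM1A and the histone deacetylases, and CREB proteins bind the cAMP response element. Of 22 such regulators, 16 were tested in SKmel147 (2 rose, 3 fell, median -0.14) and 19 in 501mel (4 rose, 10 fell, median -0.16). Over all genes 8.07% rose and 9.6% fell in SKmel147, and 24.8% rose and 26.5% fell in 501mel. Named after their values were seen, REST fell by 0.445 ± 0.0596 (adjusted p = 2.25e-05) and RCOR1 fell by 0.254 ± 0.0511 (adjusted p = 0.000797) in 501mel, and in SKmel147 they were at -0.246 (adjusted p = 0.0711) and -0.0676 (adjusted p = 0.567). In SKmel147 KDM1A fell by 0.32 ± 0.06 (adjusted p = 0.00442) and HDAC2 fell by 0.33 ± 0.08 (adjusted p = 0.0131). In 501mel HDAC1 rose by 0.29 ± 0.04 (adjusted p = 1.44e-05) and the CREB coactivator gene CRTC3 by 0.38 ± 0.04 (adjusted p = 2.59e-06). ATF4, a stress-response factor of the ATF/CREB family, fell by 0.65 ± 0.07 (adjusted p = 0.000109) in SKmel147 and also fell by 0.39 ± 0.05 (adjusted p = 2.21e-05) in 501mel. EGR1, an immediate early gene, rose in SKmel147 by 1.89 ± 0.14 (adjusted p = 6.11e-06) and in 501mel fell by 1.85 ± 0.24 (adjusted p = 1.65e-05). In 501mel EGR1 had a value of -1.38 for NTC minus Par, and was at -0.46 in KO1.8 and -3.24 in KO5.2.

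Tubulins and microtubule-binding proteins are the partners of the stathmins. In 501mel 17 of 38 tested rose (24.8% of all genes) and 12 fell (26.5%), with a median of 0.09. The beta-tubulin genes TUBB2A, TUBB2B and TUBB3 rose by 0.82 ± 0.04 (adjusted p = 2.54e-09), 0.70 ± 0.04 (adjusted p = 6.87e-09) and 0.67 ± 0.04 (adjusted p = 1.65e-08). MAP1B, a neuronal microtubule-associated protein, fell by 2.21 ± 0.13 (adjusted p = 8.5e-09). In SKmel147 4 of 39 rose (8.07% of all genes) and 8 fell (9.6%), with a median of -0.15. The tubulin genes TUBB4B and TUBA1B changed by -0.53 ± 0.07 (adjusted p = 0.000447) and -0.40 ± 0.08 (adjusted p = 0.00359), the plus-end protein gene MAPRE3 rose by 1.11 ± 0.13 (adjusted p = 0.000162), and MAP6 fell from 0.517 to 0.0779 CPM (adjusted p = 0.00169). MAP6 passed the low-count filter through control libraries alone, so a fall was built into its being tested. Tubulin genes have near-identical copies, so reads could be split among them.

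Kinases and phosphatases that act on stathmins, and stathmin partners, were called at shares near those of all genes in 501mel. In SKmel147 2 of 21 tested rose (8.07% of all genes) and 5 fell (9.6%), with a median of -0.08. There CDK2 fell by 0.43 ± 0.07 (adjusted p = 0.00217) and PLK1 fell by 0.32 ± 0.07 (adjusted p = 0.0107), and STAT3 rose by 0.29 ± 0.07 (adjusted p = 0.0145). Their NT minus Par values were -0.37 for CDK2, -0.14 for PLK1 and -0.37 for STAT3. In 501mel 6 of 21 rose (24.8% of all genes) and 5 fell (26.5%), with a median of -0.04, so nothing is read from these counts. MAPK9 rose there by 0.53 ± 0.05 (adjusted p = 9.87e-07), while CDK2 fell by 0.29 ± 0.04 (adjusted p = 3.64e-05), MAPK8 fell by 0.40 ± 0.06 (adjusted p = 0.00011) and RAC1 fell by 0.15 ± 0.04 (adjusted p = 0.0038). RAC1 was at -0.3 in KO1.8 and -0.01 in KO5.2.

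Proliferation genes were listed because STMN1 is high in dividing cells. In 501mel, where STMN1 rose, 14 of 24 rose (24.8% of all genes) and 0 fell (26.5%), with a median of 0.17. Among them RRM2 rose by 0.66 ± 0.04 (adjusted p = 2.37e-09), MCM3 by 0.58 ± 0.04 (adjusted p = 1.11e-08), PCNA by 0.56 ± 0.04 (adjusted p = 1.2e-07) and BUB1B by 0.49 ± 0.04 (adjusted p = 1.35e-07), genes of nucleotide supply, replication and the spindle checkpoint. In SKmel147 0 of 24 rose (8.07% of all genes) and 3 fell (9.6%), with a median of -0.09, shares not far from the background. These were CENPF (-0.55 ± 0.07, adjusted p = 0.000237), CDC20 (-0.41 ± 0.07, adjusted p = 0.00244) and MCM5 (-0.45 ± 0.09, adjusted p = 0.00622). Their NT minus Par values were 0.58 for CENPF, -0.3 for CDC20 and -0.69 for MCM5. The proliferation genes had a median of 0.31 in SKmel147 NT against Par. Taking lines rather than libraries as replicates, 0 of the listed pathway genes were called in either cell line. The share of all genes called in that setting is not given here, so nothing is read from this count.

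**Figure D4:**
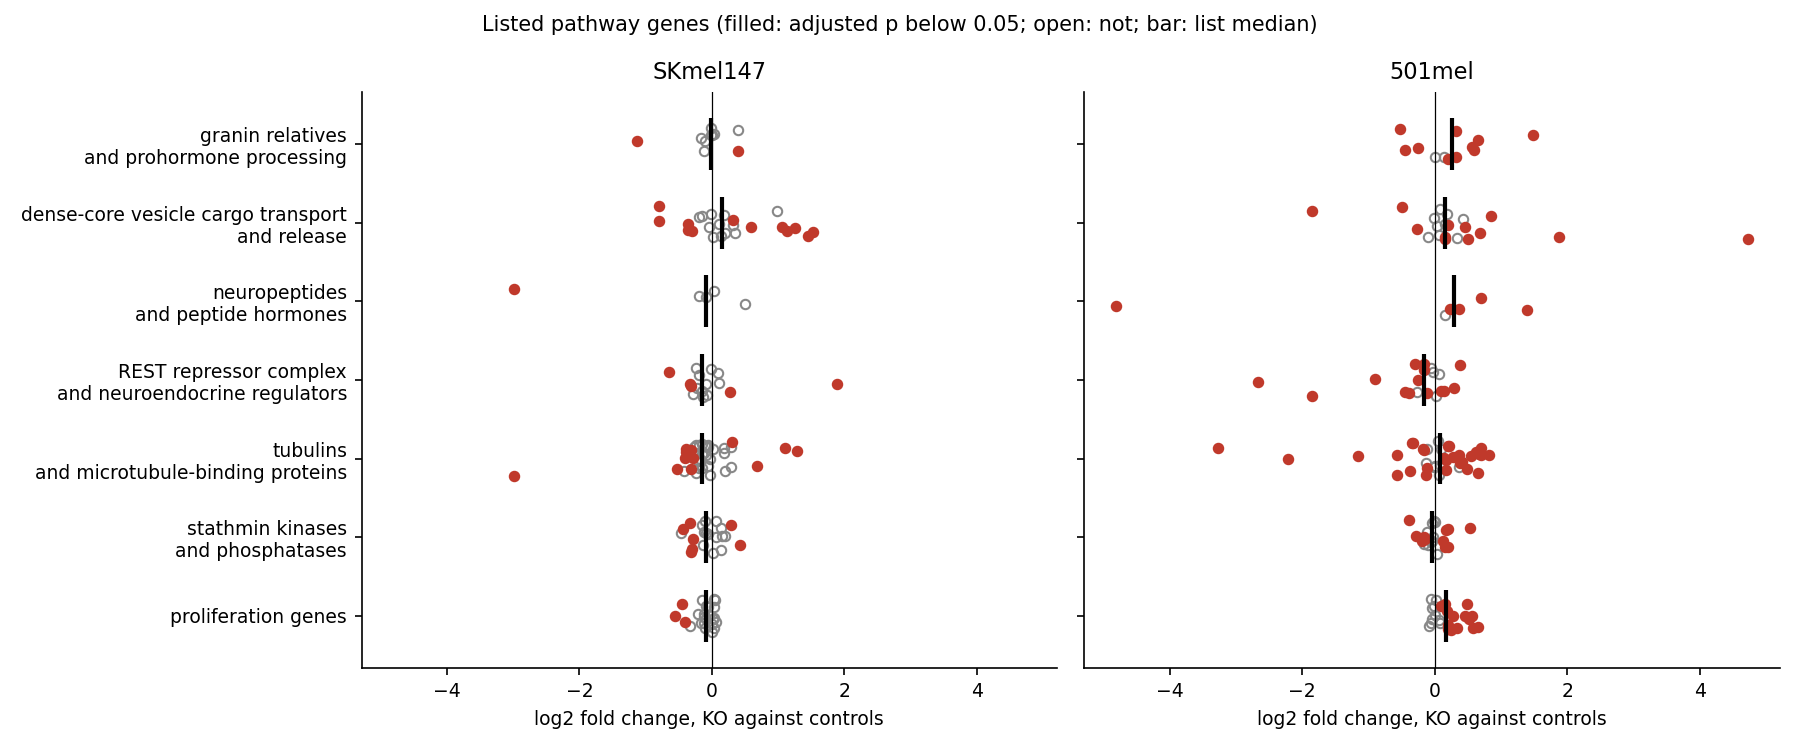
Log2 fold changes, KO against controls, of the tested genes of 7 lists in SKmel147 (left) and 501mel (right), with filled points at an adjusted p under 0.05, open points otherwise and a bar at the list median (PTPRN2, whose 501mel estimate had no usable SE, is not drawn). The medians lie between -0.16 and 0.30. The filled proliferation genes lie above 0 in 501mel, 14 of 24, and below 0 in SKmel147, 3 of 24.

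The genes on either side of VGF and STMN3 were compared with them in 501mel. Next to VGF, AP1S1, a clathrin adaptor subunit, was at 46.5 CPM in Par and at 49.8 and 53.3 CPM in KO1.8 and KO5.2, and rose by 0.17 ± 0.05 (adjusted p = 0.014, edgeR). On the other side NAT16, an N-acetyltransferase gene, was at 1.06 CPM in Par, 1.93 CPM in NTC, 4.33 CPM in KO1.8 and 4.11 CPM in KO5.2. NAT16 thus had the same order as VGF at a far lower level, and rose by 1.56 ± 0.15 (adjusted p = 1.27e-06). Next to STMN3, neither GMEB2 (0.05 ± 0.07, adjusted p = 0.572) nor RTEL1 (0.17 ± 0.46, adjusted p = 0.783) passed the test. The median over the tested genes of chromosome 20, which holds STMN3 and CHGB, was 0.25 in KO1.8, 0.23 in KO5.2 and -0.28 in SKmel147 KO3.20. For chromosome 7, with VGF, it was -0.11 in KO1.8 and -0.07 in KO5.2, and for chromosome 2, with SCG2, it was 0.01, 0.03 and -0.0047 in KO1.4, KO1.5 and KO3.20. Over the 9 lines, each centred within its cell line, the genes most like VGF among 9937 were ICMT (Pearson r = 0.98), WDR46 (0.954) and DDR1 (0.94). For STMN3 they were TMEM120A (0.967), DCXR (0.944) and VPS16 (0.942). These r values are descriptions over 9 points that share controls and depth.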

How the data were processed

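Polyadenylated RNA of 18 libraries was measured as raw read counts per gene symbol. The authors deposited these counts unnormalized, 1 table per cell line. Per the submitters' processing notes STAR 2.6.0 and featureCounts were used with GRCh37 and hg19. The sources used here do not give the annotation release, the strand setting or how multimapping reads were treated. Counts were tested in R 4.3.3 with edgeR 4.0.16: TMM, filterByExpr by line, 1 coefficient per line, quasi-likelihood test, 1 fit per cell line, and a joint fit for comparisons between cell lines. Levels use the TMM factors of the joint fit. The SE is the estimate divided by the root of the F value. The test was checked on simulated counts.

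The members and the 7 pathway lists were chosen with earlier results of these data known. Per list and cell line, up to 4 called genes with the smallest p were named. Some listed genes are not reported here. GENCODE 29, on another assembly, gave chromosome, neighbours, GC content and length, and matched 35365 of 56629 symbols. CCDC186 was found under an older symbol. Promoters are from RefSeq. Alternatives used DESeq2 1.42.0 size factors or Wald test, no filter, a replicate block, GC and length correction, either control alone, a line or library left out, the line as replicate, and limma 3.58.1 voom.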

Additional observations from a re-analysis of the deposited data

Results flagged for a closer look

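STMN3 in SKmel147 was at 0.919 CPM in Par replicate 2 and at 0.345 to 0.429 CPM in the other 3 control libraries, a gap that stood out within the group. This was the 1 such value among 20 groups examined, and chance gives about 1 in 20. The KO effect on STMN1 differed between the cell lines, by 0.49 on the log2 scale, 501mel minus SKmel147, in the interaction test of the joint edgeR fit (adjusted p = 0.000595).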

How the results depend on the processing

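Each line had 2 libraries, and taking the line as the replicate left 2 or 3 lines a group. Of the member fold changes under alternatives, 1039 kept direction and call, 31 lost a call, 18 gained one, 29 changed sign and 27 untested values moved. For these and the counts below, the cause was not tested. Shares of all genes called under the alternatives are not given here, so nothing is read from a count of 0 under them. Members called in SKmel147 KO against controls numbered 1 in the main analysis, 2 without the low-count filter (SCG2 and VGF), with the GC and length correction, against NT alone and without KO1.4, and 0 with lines as replicates and in voom. Of the 4 members other than VGF and STMN3, 3 were called in 501mel KO against controls, 1 against NTC alone and without KO1.8 (2 tested), and 0 with lines as replicates and in voom. In both 501mel KO lines 0 were called, and 1, STMN1, with the GC and length correction and against NTC alone. This count needs both lines, so it has no value with either left out. For the same 4 members, the interaction is the KO effect in 501mel minus that in SKmel147. It was called for 1, for 2 with the GC and length correction, against transduced controls alone and without KO1.4, KO1.5 or KO1.8, and for 3 without KO5.2. Leaving out 1 library gave 1 to 3, 2 to 3, 0 to 1 and 1 to 2 for these 4 counts. The high counts came without NT replicate 2 or Par replicate 2 of SKmel147, Par replicate 2 of 501mel, and Par replicate 2 or KO1.4 replicate 2 of SKmel147. In the first of these counts VGF passed the filter through its KO libraries, and in the last SCG3 passed that of the full fit through KO1.8 alone. Signs changed only for values not called in the main analysis. SCG5 in SKmel147 KO became -0.01 without the filter and in voom, -0.03 against Par alone, -0.02 without KO1.4 and -0.19 without KO1.5. STMN3 there became 0.03 against NT alone, 0.58 without KO1.5, 0.01 without KO3.20 and 0.79 with lines as replicates. With the GC and length correction, SKmel147 NT minus Par became -0.14 for SCG2 and -0.01 for STMN1, and 501mel NTC minus Par became 0.02 for SCG2. SCG3 in KO5.2 became -0.06 against NTC alone, and the SCG2 interaction became 0.99 without KO5.2. With 1 library left out, SCG5 ranged from -0.05 to 0.05 in SKmel147 KO, from -0.03 to 0.11 in KO1.4, from -0.16 to 0.02 in NT minus Par and from -0.05 to 0.91 in 501mel NTC minus Par. SCG2 ranged from -0.07 to 0.09 in NT minus Par and from -1.07 to 0.49 in NTC minus Par, and SCG3 from -0.07 to 0.47 in KO5.2.

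No pairing by replicate number was clear: differences between the libraries of a line correlated at -0.267 to 0.324 between SKmel147 lines and at -0.025 to 0.138 between 501mel lines. In SKmel147, Par, NT and KO1.5 correlated at 0.164 to 0.324 with each other and negatively with KO1.4 and KO3.20. A batch that does not follow the replicate numbers was not tested. Chi-square per degree of freedom between a line's libraries was 13.59 to 35.21 in SKmel147 and 2.383 to 4.511 in 501mel. With the replicate block, members called numbered 1 in SKmel147 KO against controls, 3 in 501mel KO against controls and 1, STMN1, in both 501mel KO lines.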
